A study of Mus musculus with 10 samples.

Results

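The regions bound by SMAD2/3 in mouse embryonic stem cells (ESCs) were set against the regions bound by HEB in the same cells. The members were all regions of the 2 deposited lists for these cells, 4111 for SMAD2/3 and 17222 for HEB, which made 21333 of the 78263 regions in the 6 lists of the series. A region of one list was counted as shared when it overlapped a region of the other by at least 1 bp. Both lists came from untreated ESCs of the CGR8 line at passages 18 to 25, grown on gelatin without feeders in medium with serum and leukaemia inhibitory factor, and both shared an ESC input library. Chromatin immunoprecipitation with sequencing (ChIP-seq) used an antibody against SMAD2/3, which does not separate the SMAD2 and SMAD3 proteins, or an antibody against HEB, the protein of the Tcf12 gene. Each group held 1 library from 1 cell line. The comparisons below therefore have no replicate check and no test, and they describe these libraries. For contrast, the same measures were taken from the SMAD2/3 and HEB lists of endoderm made from the line with 100 ng/ml Activin A and collected at day 4. The HEB list of ESCs kept for 24 hours in 10 µM SB431542, which blocks the kinases of the type I receptors for activin and Nodal, served to look up the same regions.

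SMAD2 and SMAD3 are phosphorylated by the Nodal, activin and TGF-beta receptors, join SMAD4 and act on genes in the nucleus. These SMAD complexes bind short DNA elements weakly and depend on partner factors such as FOXH1, and in ESCs their known targets include the pathway's own feedback genes. HEB belongs to the E proteins, basic helix-loop-helix factors that bind E-box sequences as dimers and that Id proteins hold off DNA.

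Promoters of genes whose 5′ end lay inside regions of both lists were read for motif letters. Among the listed pathway and lineage genes described below, 17 had the 5′ end inside a region of both lists, and 6 of these had a single promoter window in the RefSeq table. Those of Tdgf1 and Nodal are shown as the pathway's co-receptor and ligand, and those of Fgf4 and Zfp42 as pluripotency genes. The windows are 250 bases before to 50 bases after the RefSeq start in GRCm38.p6, read 5′ to 3′ on the gene's strand. They lie at chr9:110946109-110946408 (minus strand, Tdgf1), chr10:61417722-61418021 (plus, Nodal), chr7:144861136-144861435 (plus, Fgf4) and chr8:43306960-43307259 (minus, Zfp42). Capitals mark matches on either strand to the SMAD box CAGAC (reverse GTCTG), the E-boxes CAGCTG and CAGGTG (reverse CACCTG) and the FOXH1 core AATNNACA (reverse TGTNNATT).
Tdgf1: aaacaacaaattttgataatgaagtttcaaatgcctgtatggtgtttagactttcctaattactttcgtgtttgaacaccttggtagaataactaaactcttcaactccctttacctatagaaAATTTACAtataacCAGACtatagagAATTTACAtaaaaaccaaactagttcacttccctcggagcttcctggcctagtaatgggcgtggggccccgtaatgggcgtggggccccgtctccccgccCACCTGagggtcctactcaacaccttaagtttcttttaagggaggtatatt
Nodal: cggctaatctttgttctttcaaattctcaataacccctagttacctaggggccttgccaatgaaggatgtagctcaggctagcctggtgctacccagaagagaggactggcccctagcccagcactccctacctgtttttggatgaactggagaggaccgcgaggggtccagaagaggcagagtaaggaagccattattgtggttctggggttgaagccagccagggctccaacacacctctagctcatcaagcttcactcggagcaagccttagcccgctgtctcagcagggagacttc
Fgf4: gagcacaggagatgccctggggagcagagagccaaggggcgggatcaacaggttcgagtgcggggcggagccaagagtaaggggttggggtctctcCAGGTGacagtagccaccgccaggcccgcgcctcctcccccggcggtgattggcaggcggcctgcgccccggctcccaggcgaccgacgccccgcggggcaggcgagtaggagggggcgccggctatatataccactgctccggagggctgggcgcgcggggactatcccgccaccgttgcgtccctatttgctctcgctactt
Zfp42: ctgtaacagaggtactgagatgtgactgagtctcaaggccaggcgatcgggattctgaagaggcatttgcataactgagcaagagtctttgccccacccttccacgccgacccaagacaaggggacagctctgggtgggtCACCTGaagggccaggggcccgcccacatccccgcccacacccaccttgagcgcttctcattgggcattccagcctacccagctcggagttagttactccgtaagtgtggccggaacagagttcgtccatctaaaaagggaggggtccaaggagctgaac
The Tdgf1 window held 1 SMAD box, 1 CAGGTG box and 2 FOXH1 cores, with the SMAD box between the cores. The Fgf4 and Zfp42 windows held 1 CAGGTG box each, and the Nodal window held none of these letters. Of all 32851 RefSeq windows of the same length, 49.6% held the SMAD box, 16.3% CAGCTG, 20.2% CAGGTG and 12.2% the FOXH1 core, so a match in a single window is common. A match is a description of the window and was not placed on the summit of a region, since the regions are given on another build, mm9. A window need not hold a summit. By the authors' 5′ end, the higher SMAD2/3 region of Tdgf1 lay 823 bp away, beyond the 250 bases read before the start. The summit of the Tdgf1 HEB region lay within that SMAD2/3 region, so it too was outside the window.

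Most SMAD2/3 regions lay on HEB regions, whereas most HEB regions had no SMAD2/3. Of the 4111 SMAD2/3 regions, 3448 overlapped HEB (83.9%, exact 95% CI 82.7 to 85.0), and 3414 of the 17222 HEB regions overlapped SMAD2/3 (19.8%, 19.2 to 20.4). These intervals, and all others given, cover counting error only. The share depended on how high a region stood, where ChIP height is the deposited peak height of the region, in units that the sources used here do not give. Among SMAD2/3 regions the share with HEB was 77.9% (75.7 to 80.1) at heights of 25 to 30 and 96.1% (91.6 to 98.5) at 100 to 200, and 39 of the 41 regions of 200 or more had it. Among HEB regions the share with SMAD2/3 was 5.41% (4.78 to 6.10) at heights of 25 to 30 and 66.4% (61.4 to 71.2) at 200 or more. Thus 126 of the 375 highest HEB regions had no SMAD2/3 region, against 2 of the 41 highest SMAD2/3 regions without HEB. Both lists begin at a height of 25.0, so weaker binding of the other factor would not be listed.

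**Figure D1:**
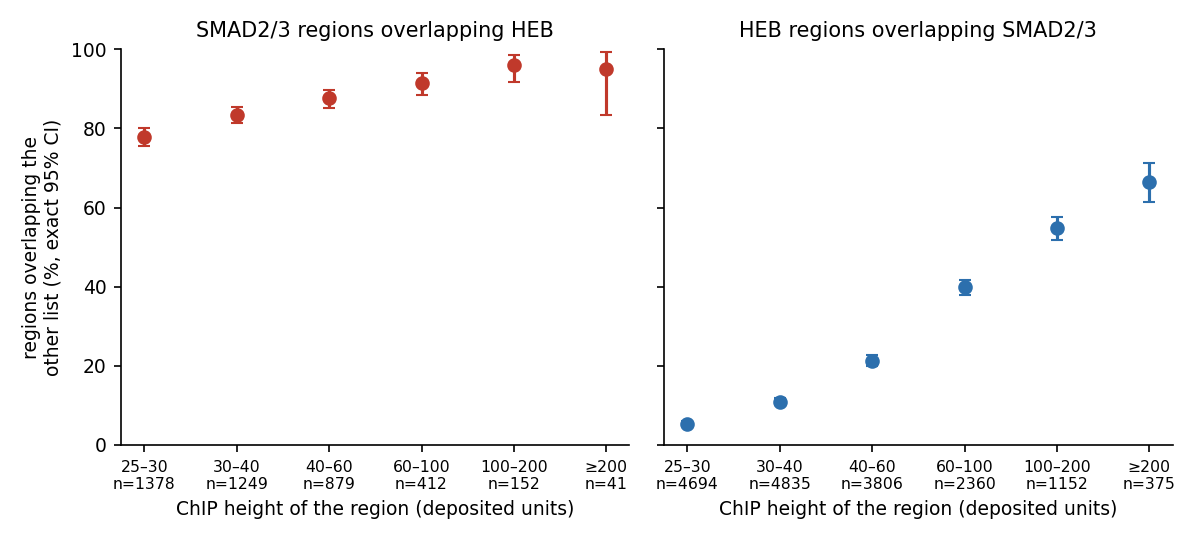
Share of regions that overlap the other list (vertical axis, percent, with exact 95% intervals) by class of ChIP height (horizontal axis, deposited units), SMAD2/3 regions on the left and HEB regions on the right, with the number of regions under each class. SMAD2/3 regions start at 77.9% in the lowest class, while HEB regions start at 5.41% and reach 66.4% at heights of 200 or more.

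HEB regions that carried SMAD2/3 were higher and wider than those that did not. Their median ChIP height was 63.4 (95% interval of the median 61.7 to 65.4) with SMAD2/3 and 34.7 (34.4 to 34.9) without, and the median width was 652 bp (638 to 668) with it and 486 bp (480 to 490) without. SMAD2/3 regions differed in the same direction by less, with median heights of 35.3 (34.7 to 36.0) with HEB and 30.7 (30.02 to 31.7) without and widths of 538 bp (529 to 549) and 401 bp (384 to 418). The tags behind them were 174 ChIP and 27 input tags in the median SMAD2/3 region with HEB, and 122 and 17 in the median region without. Promoter-proximal regions, within 1 kb of the 5′ end of a listed gene, made up 13.2% (12.1 to 14.3) of the SMAD2/3 regions with HEB and 25.6% (22.4 to 29.1) of those without. Among HEB regions the shares were 13.3% (12.2 to 14.5) with SMAD2/3 and 18.8% (18.2 to 19.5) without. Of the SMAD2/3 regions without HEB, 36.7% (33.0 to 40.4) had a HEB region within 10000 bp, and the median gap was 22559 bp. The median gap of HEB regions without SMAD2/3 to the next SMAD2/3 region was 81416 bp. These gaps depend on the length of the list searched, 17222 regions for HEB and 4111 for SMAD2/3, so their difference is not interpreted.

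Overlapping regions were paired when each was the other's largest overlap, which left 3391 pairs of 3479 overlaps. In these pairs HEB stood higher. The median ChIP height was 35.2 (34.6 to 35.9) for SMAD2/3 and 63.7 (61.8 to 65.6) for HEB, and the median log2 ratio of SMAD2/3 over HEB was -0.74 (-0.78 to -0.71), with quartiles of -1.33 and -0.20. SMAD2/3 was the higher one in 597 pairs (17.6%, 16.3 to 18.9). Tag enrichment is a deposited column that equals ChIP over input tags within 1% in 96.9% of SMAD2/3 and 94.9% of HEB regions. The others hold few input tags, with a median of 6 in either list. By tag enrichment the medians were 7 for SMAD2/3 and 11.0 for HEB, with a median log2 ratio of -0.61 (-0.64 to -0.59). The input behind the heights was on the same scale in both lists: at the 67 pairs that share a summit position, the input height of the HEB list over that of the SMAD2/3 list had a median of 1.003. Antibody and ChIP depth still differ between the libraries, so heights below are read against the median ratio of all pairs. A pair is said to lean to SMAD2/3 or to HEB when its log2 height ratio is at least 1 above or below that median, a 2-fold departure. By this rule 369 pairs (10.9%) leaned to SMAD2/3 and 476 (14.0%) to HEB. On the scale of tag enrichment the shares were 7.34% and 8.67%.

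**Figure D2:**
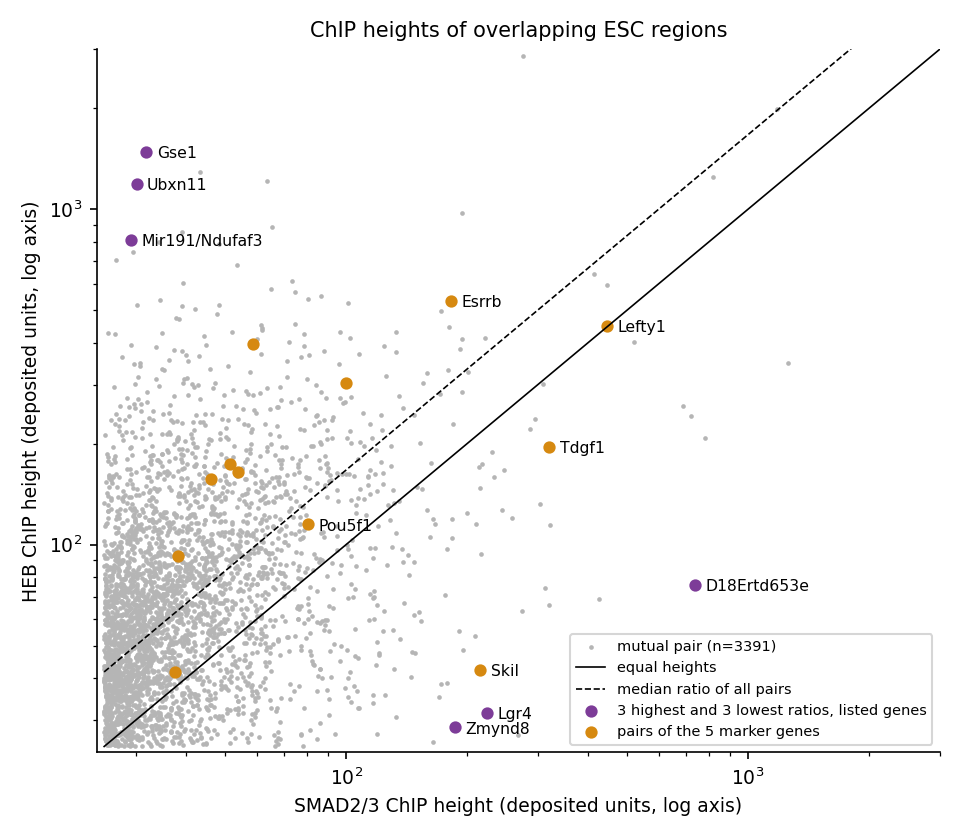
ChIP heights of the 3391 mutual ESC pairs, SMAD2/3 on the horizontal and HEB on the vertical log axis, in deposited units, with the line of equal heights and the dashed line of the median ratio. Most points lie above the line of equal heights, and Skil, Lgr4 and D18Ertd653e lie far below it, with Gse1 and Ubxn11 at the opposite corner.

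The heights of the pair members were only loosely related, with a Spearman rho of 0.353 over 3391 pairs, against 0.609 for tag enrichment and 0.688 for width. These are descriptions of pairs that share an input and are listed only above the same lower limit. In the 103 pairs with both heights at 100 or more the median log2 ratio was -0.41 (-0.60 to -0.27). Promoter-proximal pairs, 459 in number, were less tilted to HEB than the other 2932, with median log2 ratios of -0.41 (-0.46 to -0.33) and -0.79 (-0.83 to -0.76). SMAD2/3 was the higher factor in 24.4% (20.5 to 28.6) of promoter-proximal and 16.5% (15.2 to 17.9) of other pairs. Promoter-proximal pairs also stood nearer the lower limit of 25.0. Their median heights were 31.3 for SMAD2/3 and 43.6 for HEB, against 35.9 and 66.8 in the other pairs. Whether this affects the ratios was not tested.

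The summits of paired regions nearly coincided. Their median distance was 16 bp (15 to 17), with quartiles of 7 and 41 bp, and it was within 10 bp in 35.5% of pairs, within 50 bp in 78.4% and within 200 bp in 92.5%. The SMAD2/3 summit lay at the lower coordinate in 50.5% of pairs (48.8 to 52.2), so neither side was preferred. In 65 pairs (1.92%, 1.48 to 2.44) the summits were over 500 bp apart. HEB regions were wider, at a median of 655 bp (639 to 670) against 540 bp (530 to 550) for SMAD2/3, and SMAD2/3 was the wider in 24.0% of pairs (22.5 to 25.4). Wider regions can hold several of the other list: 63 HEB regions spanned 2 or more SMAD2/3 regions, and 31 SMAD2/3 regions spanned 2 or more HEB regions. Tbx3, the gene of a T-box factor that supports self-renewal, shows what this does to a pairing. Its HEB region of 3905 bp and height 139.5 spanned SMAD2/3 regions of height 77.3 and 38.7, of which the first had its summit 4 bp from that of HEB and the second, the larger overlap, 1944 bp from it.

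**Figure D3:**
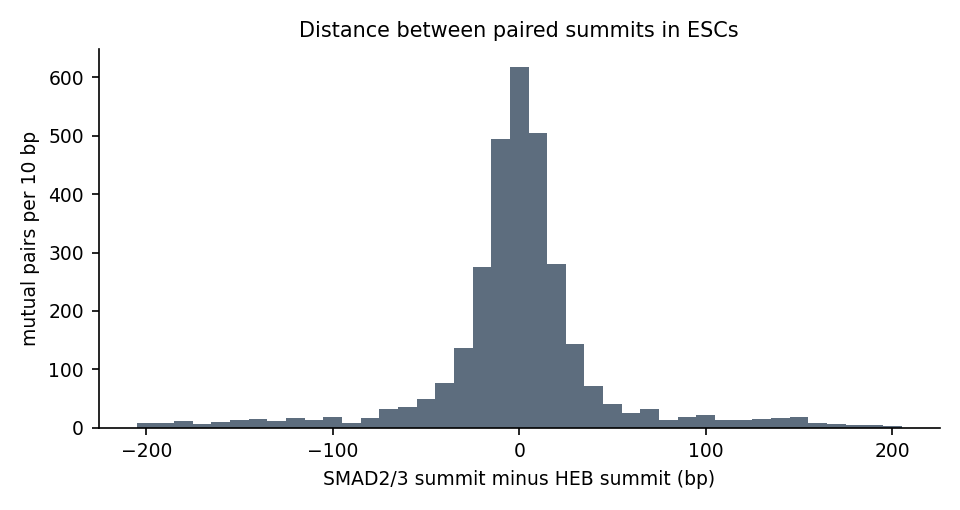
Position of the SMAD2/3 summit minus that of the HEB summit (horizontal axis, bp) against the number of mutual pairs per 10 bp (vertical axis). Pairs within 200 bp are drawn. The peak is centred near 0 and the median absolute distance over all 3391 pairs is 16 bp.

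The genes with the highest shared regions included genes of the pathway itself. Among pairs with a listed gene, ranked by the lower height of the pair, the first 2 were Mir715 (1179 for SMAD2/3 and 1989 for HEB) and Sfi1 (447 and 594), which stood on input heights of 342 and 108 in the SMAD2/3 list and thus on regions where the input itself is high. Next came Lefty1, which encodes a secreted inhibitor of Nodal (445 and 449), and Ski, which encodes a SMAD co-repressor (521 and 401). Pgpep1, the gene of a pyroglutamyl peptidase, had 722 for SMAD2/3 and 242 for HEB. Eif2c1, which encodes the Argonaute protein AGO1, had 296 and 238. Pairs with no gene listed are left out of this ranking, and some stood as high. They included pairs of 818 for SMAD2/3 and 1250 for HEB and of 413 and 639, on SMAD2/3-list input heights of 171 and 81.6. Others had 1258 and 348, and 310 and 302.

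The pairs with a listed gene that lay furthest from the median ratio ran both ways. On the SMAD2/3 side D18Ertd653e, named Ldlrad4 in RefSeq and known to dampen TGF-beta signalling, had a height of 737 for SMAD2/3 and 75.9 for HEB, a 9.71-fold ratio. Lgr4, a receptor for R-spondins, had 225 and 31.4 over its 5′ end, and Zmynd8, a reader of histone marks, 186 and 28.5. On the HEB side Gse1, whose protein occurs in CoREST complexes, had 31.8 for SMAD2/3 and 1481 for HEB, with HEB 46.5-fold higher. Its HEB region also spanned a second SMAD2/3 region of height 52.7, with HEB 28.1-fold higher. Ubxn11 had 30.1 and 1188, the region shared by Mir191 and Ndufaf3 29.1 and 810, and St5 26.8 and 707. These 7 pairs kept their direction and at least 2-fold departure when tag enrichment or tags per kb replaced height. In these pairs the summits lay 2 to 48 bp apart, except for Mir191 and Ndufaf3 with 470 bp.

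The 5 marker genes, Tdgf1, Lefty1, Skil, Esrrb and Pou5f1, each had regions of both factors, which overlapped. At Tdgf1, the gene of Cripto, a co-receptor for Nodal, the SMAD2/3 list held 2 regions under 1 wide HEB region. The higher SMAD2/3 region (chr9:110849485-110850917) had a height of 320 and 2526 ChIP tags (exact Poisson 95% interval 2428 to 2626) against 73 input tags, and lay 823 bp from the 5′ end. The lower, over the 5′ end (chr9:110848475-110849458), had a height of 45.1 and 342 tags (307 to 380) against 35. The HEB region (chr9:110848482-110850923) covered both, with a height of 195 and 2496 tags (2399 to 2596) against 108. SMAD2/3 thus stood 1.64-fold above HEB here, 1.45 above the median pair on the log2 scale, and its summit was 553 bp from that of HEB. The 5′ end given by the authors' annotation was thus in the lower of the SMAD2/3 regions.

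At Lefty1 the regions coincided. SMAD2/3 (chr1:182863307-182865708) had a height of 445 and 3767 tags (3648 to 3889) against 158 input tags, and HEB (chr1:182863286-182865640) a height of 449 and 3863 tags (3742 to 3987) against 159. The summits were 11 bp apart, and the log2 height ratio of -0.01 was 0.73 above the median pair. The highest SMAD2/3 region of the whole list lay 7.64 kb to the left of that region with no gene listed (chr1:182854591-182855663), at 1258 for SMAD2/3 and 348 for HEB. A further unassigned pair, 43.4 kb to the left (SMAD2/3 at chr1:182817910-182819899), had 783 for SMAD2/3 and 209 for HEB. Between them, Lefty2, which encodes a related Nodal inhibitor, had 58.8 and 29.2 over its 5′ end. Along this stretch the SMAD2/3 list had 6 regions, all overlapping HEB, and the HEB list had 10, of which 6 overlapped SMAD2/3. The 4 without SMAD2/3 were low, with heights of 29.5 to 39.8.

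At Skil, which encodes the SMAD co-repressor SnoN, SMAD2/3 stood far above HEB. Its region over the 5′ end (chr3:30992945-30994529) had a height of 216 and 1258 tags (1189 to 1329) against 39 input tags. HEB (chr3:30992926-30994134) had a height of 42.3 and 396 tags (358 to 437) against 31. The ratio was 5.10-fold and the summits lay 275 bp apart. A second SMAD2/3 region beside it (height 29.8, 149 tags) had no HEB.

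Esrrb, an orphan nuclear receptor that sustains self-renewal, ran the other way in all but the first of its pairs. All 7 of its SMAD2/3 regions lay on HEB regions, while 10 of its 17 HEB regions had no SMAD2/3. From left to right along the gene the 7 SMAD2/3 heights were 37.6, 51.4, 58.8, 46.1, 99.8, 183 and 53.7, and the paired HEB heights were 41.8, 174, 395, 157, 302, 533 and 165. HEB was higher in every pair, by 1.11-fold in the first and by 2.92-fold to 6.73-fold in the others. Read against the median ratio of all pairs, the log2 departures were 0.59, -1.02, -2.01, -1.03, -0.86, -0.81 and -0.88 by height. By tag enrichment they were 0.32, -0.66, -1.67, -0.81, -0.79, -0.60 and -0.70. Only the pair with a HEB height of 395 leaned to HEB on both scales. The highest pair, at chr12:87842458-87843301 for SMAD2/3, had 1365 SMAD2/3 tags (1294 to 1439) and 3167 HEB tags (3058 to 3279), both against 68 input tags. The HEB regions without SMAD2/3 reached a height of 78.0 at most. The 7 pairs belong to a single gene and are not independent of each other.

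Pou5f1, the gene of OCT4, had 3 SMAD2/3 regions of height 80.2, 58.1 and 38.1 and 2 HEB regions of height 115 and 92.3. The wider HEB region (chr17:35641439-35643677, 1431 tags, 1358 to 1507) covered the 5′ end and the first 2 of the SMAD2/3 regions, and the nearer summit was 3 bp away. Here the scale mattered, since the log2 ratio was -0.52 by height and 0.59 by tag enrichment, the HEB region being 2239 bp wide and that of SMAD2/3 946 bp. A higher pair just to the left with no gene listed (SMAD2/3 at chr17:35640532-35641386) had 195 for SMAD2/3 and 285 for HEB.

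**Figure D4:**
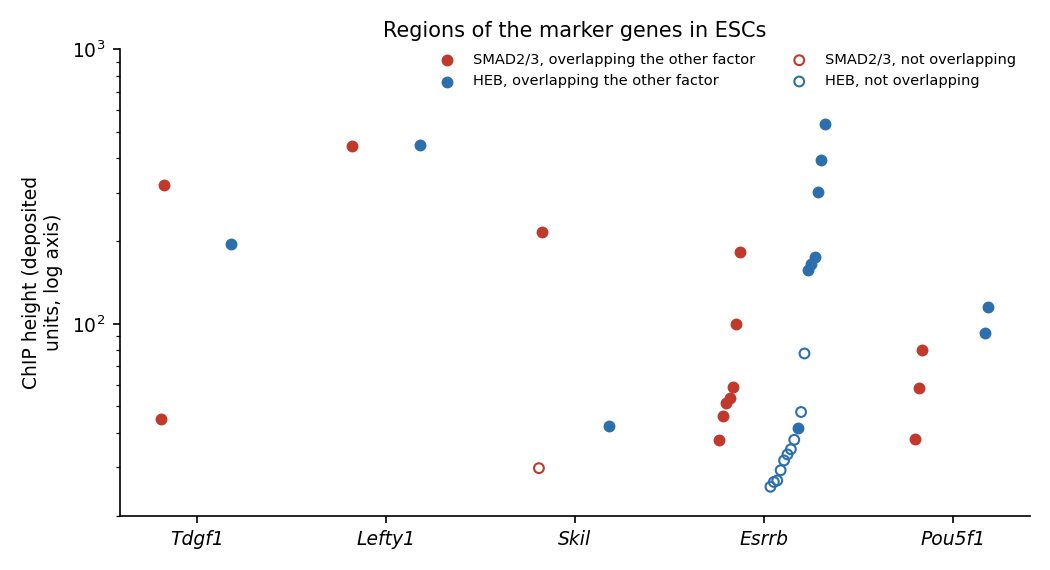
ChIP height (vertical log axis, deposited units) of every region listed for the 5 marker genes, SMAD2/3 in red to the left of HEB in blue for each gene, sorted by height and filled where the region overlaps the other factor. Skil has SMAD2/3 at 216 and HEB at 42.3, Lefty1 has the 2 factors level, and 10 of the 17 HEB regions of Esrrb are open circles.

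By the authors' gene assignment 5746 genes had a region in either list. A gene was listed for 51.9% of SMAD2/3 and 55.3% of HEB regions, and the gene counts leave out the other regions. Genes said to lack a factor lack an assigned region, and unassigned regions may lie near them. Both factors were listed at 1436, SMAD2/3 alone at 240 and HEB alone at 4070, so 85.7% of SMAD2/3 genes also had HEB and 26.1% of HEB genes also had SMAD2/3. At 1324 of the 1436 a SMAD2/3 region itself overlapped HEB, and at 112 the factors sat at different places. Among all RefSeq protein-coding genes, 6.25% were listed for both, 1.07% for SMAD2/3 only and 17.9% for HEB only. The split changed when fewer HEB regions were kept, a setting that shortens the HEB list and raises its lowest height together. With HEB limited to its 4111 highest regions, 785 genes had both, 891 SMAD2/3 only and 732 HEB only.

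Genes with both factors held more HEB regions. They had a mean of 2.90 HEB regions, and 62.3% (59.8 to 64.8) had 2 or more, against a mean of 1.47 and 28.3% (26.9 to 29.7) of HEB-only genes. The mean number of SMAD2/3 regions was 1.42 in genes with both and 1.01 in SMAD2/3-only genes. Of genes with a single HEB region 15.6% (14.4 to 16.9) also had SMAD2/3, and of those with 10 or more, 45 of 47 did. Pmepa1, a membrane-anchored feedback inhibitor of the pathway, had most SMAD2/3 regions, 10, of which 8 overlapped HEB. Myo10, an unconventional myosin, had 8 SMAD2/3 and 16 HEB regions, and Esrrb, Gm672 (now Ctif), Rara, Ski and Tmem51 had 7 SMAD2/3 regions each. For HEB, Msi2, an RNA-binding protein, led with 28 regions and 6 of SMAD2/3, followed by Igsf21 with 26 and 2. Long genes can hold more regions, and gene length was not taken into account.

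All 12 gene lists used from here on were chosen with earlier results of these data known. Their counts, ratios and widths describe the genes picked and support nothing about such genes at large. Among Nodal/activin ligands and the co-receptor, 3 of 6 genes had both factors (Nodal, Gdf3 and Tdgf1) and 3 had neither (Gdf1, Inhba and Inhbb). Of all protein-coding genes, 6.25% had both factors. Nodal, the ligand that keeps the pathway active in ESCs, had 2 pairs, of which the one over the 5′ end leaned to SMAD2/3 and the other lay at the median ratio of all pairs. Over its 5′ end (chr10:60880588-60882411 for SMAD2/3) the heights were 133 for SMAD2/3 and 30.6 for HEB, with 843 and 434 ChIP tags against 78 input tags each. At the other pair, 951 bp from the 5′ end (chr10:60878246-60879769), they were 90.7 for SMAD2/3 and 154 for HEB. The summits of these pairs were 71 and 162 bp apart. Gdf3, a ligand related to Nodal, had 44.0 for SMAD2/3 and 71.6 for HEB with summits 1 bp apart, close to the median ratio.

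Of the 7 receptor genes, 0 had SMAD2/3 and 2 had HEB alone, a list too short to set apart from the 6.25% of all protein-coding genes with both factors and the 17.9% with HEB only. The HEB genes were Acvr1b, an activin type I receptor (58.6), and the TGF-beta co-receptor Tgfbr3 (29.0). Of the 11 SMADs and DNA-binding partners only Foxh1 had both, with 30.4 for SMAD2/3 and 58.1 for HEB over its 5′ end. HEB alone was listed at Eomes (107), Smad3 (44.4), Tcf4, which encodes another E protein (36.7), and Smad4 (35.3). Tcf12, the gene of HEB itself, had neither factor, and the same was true of Smad2.

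The feedback genes and repressors picked for this list often held both factors. Of these 14 genes, 8 had both factors, Bambi had SMAD2/3 alone, 3 had HEB alone and 2 had neither, against the shares of 6.25%, 1.07% and 17.9% of all protein-coding genes given above. Their 21 pairs had a median log2 height ratio of -0.01, against -0.74 over all pairs, and 8 leaned to SMAD2/3 and 1 to HEB, where 10.9% and 14.0% of all pairs did. By tag enrichment 7 leaned to SMAD2/3, of which 5 were the same pairs, and 1 to HEB. The 8 that leaned by height lay in 5 genes: Lefty2, Smad7, Pmepa1, Skil and Ski. Pmepa1 and Ski held most of the 21 pairs, and pairs of the same gene are not independent of each other. Smad7, which encodes an inhibitory SMAD that blocks the receptors, had 105 for SMAD2/3 and 46.4 for HEB over the 5′ end. The highest SMAD2/3 region of Pmepa1 (chr2:173063434-173065217) had 196 for SMAD2/3 and 48.5 for HEB, and its region over the 5′ end (height 61.9) had no HEB. Ski had 7 pairs, of which 2 leaned to SMAD2/3 and 1 to HEB. By tag enrichment those 2 lay only 0.45 and 0.80 above the median log2 ratio of all pairs. Its highest pair for SMAD2/3 (chr4:154563504-154564764) had 521 and 401, with 2388 and 2091 ChIP tags against 82 input tags each, while its highest for HEB (chr4:154537312-154538284 for SMAD2/3) had 194 for SMAD2/3 and 976 for HEB. Smad6, another inhibitory SMAD, had SMAD2/3 over its 5′ end (55.2) and 3 HEB regions elsewhere in the gene (29.5 to 53.4), none overlapping. Bambi, a decoy receptor, had a SMAD2/3 region of height 43.1 over its 5′ end. The HEB-only members were Tgif2 (31.5), Fst (28.2) and Smurf1 (25.2), all close to the lower limit of the list.

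Pluripotency genes had both factors at 15 of 29, HEB alone at 10 and neither at 4 (Klf4, Klf5, Dppa4 and Tet1), and none had SMAD2/3 alone, where 6.25% of all protein-coding genes had both factors and 17.9% HEB only. Their 35 pairs had a median log2 height ratio of -0.87, near the -0.74 of all pairs. Of these pairs, 2 leaned to SMAD2/3 and 6 to HEB, against 10.9% and 14.0% of all pairs. By tag enrichment the counts were 3 and 2, against 7.34% and 8.67% of all pairs. Only 1 pair leaned to SMAD2/3 on both scales, and 2 leaned to HEB on both. After Esrrb (183 for SMAD2/3 and 533 for HEB), the highest SMAD2/3 members were Tcfcp2l1 (now Tfcp2l1, 89.9 and 139), Dppa5a (81.2 and 48.1) and Pou5f1. Nanog had 73.0 for SMAD2/3 and 129 for HEB over its 5′ end, with summits 7 bp apart. The pairs that leaned to SMAD2/3 by height were that over the 5′ end of Fgf4, the growth factor that primes ESCs for differentiation (47.7 and 27.2), and that of Dppa5a, whose SMAD2/3 region also covered a second HEB region of height 30.4. The Fgf4 pair kept its lean by tag enrichment, while the Dppa5a pair did not, with 12.6 for SMAD2/3 and 13.5 for HEB. In the Fgf4 pair the summits were 3 bp apart, and over the 5′ end of Zfp42, a marker also called Rex1, they were 8 bp apart with heights of 29.8 and 54.6. The HEB-leaning pairs were 3 of Esrrb and 1 each of Tdh, Rif1 and Tbx3, the last resting on the pairing described above. The highest HEB-only members were Jarid2 (81.7), Lin28 (61.8), Sox2 (60.7) and Sall4 (56.2).

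Id1, an inhibitor of E proteins that BMP signals induce, had 2 pairs, and HEB was far above SMAD2/3 in both. They had 53.3 for SMAD2/3 and 259 for HEB, and 27.3 and 218. By tag enrichment 1 of these 2 pairs kept a 2-fold departure. Id3 (77.3) and Id2 (51.4) had HEB alone and Id4 neither. Of all protein-coding genes, 6.25% had both factors and 17.9% HEB only.

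**Figure D5:**
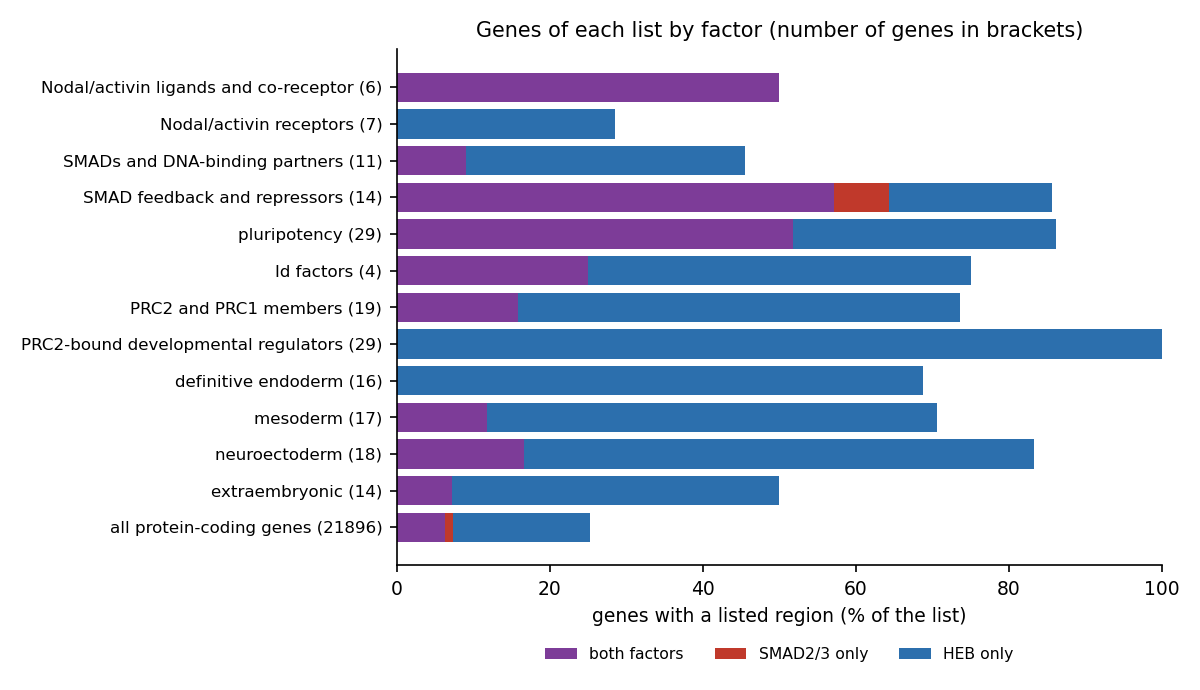
Share of the genes of each list (horizontal axis, percent, with the number of genes in brackets) with both factors, with SMAD2/3 only and with HEB only, and the same over all protein-coding genes in the lowest bar. The feedback and pluripotency lists have the longest bars for both factors together with the 6 ligands and co-receptor, and the PRC2-bound, endoderm, mesoderm and neuroectoderm lists are mostly HEB only. In the extraembryonic list 6 of 14 genes are HEB only and 7 have neither factor.

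Genes of later lineages were often listed for HEB alone, against 17.9% of all protein-coding genes. SMAD2/3 was at 0 of 16 definitive endoderm, 2 of 17 mesoderm, 3 of 18 neuroectoderm and 1 of 14 extraembryonic genes, counts too small to set apart from the 6.25% of all genes with both factors and the 1.07% with SMAD2/3 only. Definitive endoderm genes had HEB alone at 11 of 16, led by Lhx1 (111), Sox17 (97.6), Gata6 (78.9) and Gata4 (69.4), which encode transcription factors of endoderm and mesendoderm. Mesoderm genes had HEB alone at 10 of 17, led by Snai1, a repressor of E-cadherin (499), Hand2 (77.8), Tbx5 (55.0) and Hand1 (54.6). Both factors were at the signalling genes Wnt3a (87.2 for SMAD2/3 and 59.1 for HEB) and Wnt3 (33.6 and 28.1). Neuroectoderm genes had HEB alone at 12 of 18, led by Otx1 (180), Zic2 (138), Neurod1 (103) and Zic1 (101), and both factors at Nes (42.1 and 183), Pax6 (26.8 and 57.8 in its pair) and Pax7 (25.6 and 119.9 in its pair). Extraembryonic genes had HEB alone at 6 of 14, led by Eomes (107), Col4a1 (70.8), Plet1 (66.5) and Hand1. Krt8, a keratin of simple epithelia, had SMAD2/3 (30.3) and HEB (60.5) at different places.

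PRC2 is the Polycomb complex that methylates lysine 27 of histone H3. HEB alone was listed at all 29 developmental regulators in a list of genes bound by PRC2, against 17.9% of all protein-coding genes. This list had been picked with HEB results of these data known, so its count, like those of the other lists, supports nothing. Its highest HEB members were Pax9 (395), Nkx2-2 (162), Hoxc9 (128) and Pax2 (99.7), all of which encode patterning transcription factors. A HEB region of Hoxa13 with height 46.1, picked out with its values known, overlapped a SMAD2/3 region of height 31.8 that had no gene listed. Among members of PRC2 and PRC1 themselves, 3 of 19 had both factors and 11 HEB alone, against 6.25% and 17.9% of all protein-coding genes. Mtf2, an accessory subunit of PRC2, had 82.3 for SMAD2/3 and 45.1 for HEB over its 5′ end. Cbx7 reached 59.1 for SMAD2/3, in a pair with a HEB region of height 94.1 that was not assigned to Cbx7, and Pcgf2 had 25.7 and 26.5. The highest HEB-only members were Bmi1 (259) and Cbx8 (239), which encode PRC1 subunits, and Jarid2, an accessory subunit of PRC2, had 81.7.

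HEB regions of several lists were wide. The median width was 2248 bp over the 15 HEB regions of definitive endoderm genes, 1231.5 bp over the 48 of neuroectoderm genes and 1113 bp over the 17 of mesoderm genes. Width did not go with lineage lists alone, since the 15 HEB regions of extraembryonic genes had a median of 713 bp, the 4 of the ligands and co-receptor 1822 bp and the 5 of Id genes 1126 bp. Over all HEB regions with a listed gene it was 529 bp, and over the 77 of pluripotency genes 658 bp. Regions over 2000 bp made up 53.3% of those of definitive endoderm genes, 27.1% of neuroectoderm, 11.8% of mesoderm and 13.3% of extraembryonic genes, against 2.95% of all HEB regions with a gene. The 64 HEB regions of PRC2-bound regulators had a median width of 1474 bp, which supports nothing, as the list was picked with HEB results known. The HEB region over the 5′ end of Lhx1 (chr11:84336124-84341306) spanned 5183 bp with 2101 tags, and that of Pax9 (chr12:57795214-57799142) held 3582 tags. Neither overlapped SMAD2/3.

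Among regions with a listed gene, the highest of a single factor were at other genes. For SMAD2/3 without HEB these were in Ppap2a, a phospholipid phosphatase (263, 664 tags against 10 input tags, chr13:113632681-113633098), Ccny, which encodes cyclin Y (226, over the 5′ end), Clcn4-2, a chloride transporter (167, over the 5′ end), Akap6 (155), Cdk5rap1 (92.2) and Dgkg (86.1). For HEB without SMAD2/3 the highest with a listed gene were in Tet3, an enzyme that oxidises 5-methylcytosine (956, 4084 tags against 41, chr6:83371396-83372638), Zfp536 (592), Ttc7b (572), Tiam2, an activator of Rac (555), Tecr (554) and Ubxn11 (524). The 6 SMAD2/3 regions held 195 to 793 tags and the 6 HEB regions 1375 to 4084. Regions with no gene listed reached a height of 182 for SMAD2/3 without HEB, and HEB regions without SMAD2/3 and with no gene listed stood above Tet3 at 1847, 1228 and 1114. Ubxn11 also appears above for a neighbouring region that did overlap SMAD2/3.

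SMAD2/3-only promoters held the SMAD box in a larger share and both E-boxes in a smaller share of windows than the other classes, with overlapping intervals against the class of both factors for the SMAD box. Windows of genes with a promoter-proximal SMAD2/3 region and no such HEB region held the SMAD box in 61.9% (54.6 to 68.9, 189 windows of 149 genes), those with both factors in 53.2% (48.7 to 57.8, 477 windows) and those with HEB only in 46.3% (44.3 to 48.3, 2447 windows), against 49.6% of all RefSeq windows. The E-box CAGCTG was in 7.94% (4.51 to 12.8) of SMAD2/3-only windows, 18.2% (14.9 to 22.003) of those with both and 17.3% (15.8 to 18.8) of HEB-only windows, against 16.3% of all. For CAGGTG the shares were 13.2% (8.75 to 18.9), 22.6% (19.0 to 26.7) and 21.6% (20.002 to 23.3), against 20.2%. The FOXH1 core was in 5.82%, 7.34% and 6.74%, against 12.2% of all windows. Windows of alternative starts of a gene overlap, while the intervals treat windows as independent and are thus too narrow. Whether intervals overlap therefore does not settle a difference between classes. A window need not be at the start nearest the region, and base composition was not matched.

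The same measures in endoderm showed a less lopsided pair of lists. There 60.5% (59.6 to 61.5) of the 11033 SMAD2/3 regions overlapped HEB and 35.3% (34.6 to 36.0) of the 18981 HEB regions overlapped SMAD2/3, against 83.9% and 19.8% in ESCs. Over 6609 endoderm pairs the median log2 height ratio of SMAD2/3 over HEB was -0.26 (-0.29 to -0.23), and SMAD2/3 was the higher factor in 36.1% (35.0 to 37.3), against 17.6% in ESCs. Summit distances matched those of ESCs, at a median of 17 bp (16 to 18). With 1 library in each group, ChIP depth or quality and cell state cannot be told apart in these differences.

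ESC regions of the 2 classes were found again in other lists to different extents. SMAD2/3 regions with HEB were listed for SMAD2/3 in endoderm in 35.2% (33.6 to 36.8) and those without HEB in 56.9% (53.0 to 60.7). Within heights of 25 to 40 these shares were 31.5% (29.5 to 33.5) and 53.0% (48.6 to 57.4), and at 40 to 100 they were 37.7% (34.9 to 40.5) and 68.1% (59.8 to 75.6). At heights of 100 or more, 114 of 185 SMAD2/3 regions with HEB (61.6%, 54.2 to 68.7) and 8 of 8 without HEB were listed for SMAD2/3 in endoderm. In the HEB list of ESCs with SB431542, HEB was found at 89.4% (88.4 to 90.4) of the SMAD2/3 regions with ESC HEB and at 18.1% (15.2 to 21.2) of those without it. By SMAD2/3 height, the share of those with ESC HEB was 90.2% (88.8 to 91.4) at 25 to 40. At 100 or more it was 80% (73.5 to 85.5). For those without ESC HEB it was 20.5% (17.1 to 24.3) at 25 to 40 and 1 of 8 at 100 or more. In endoderm HEB was at 36.0% (34.4 to 37.6) of the regions with ESC HEB and at 15.5% (12.9 to 18.5) of those without it. HEB regions with SMAD2/3 were listed again with SB431542 in 89.1% (88.0 to 90.2) and those without SMAD2/3 in 71.3% (70.5 to 72.1). Within a class of HEB height the gap was smaller, at 65.6% and 59.8% for heights of 25 to 40 and 99.3% and 98.6% for 100 or more. The list with SB431542 begins at a height of 28.0, above the 25.0 of the ESC lists, which limits what can be listed again.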

How the data were processed

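ChIP-seq region lists of 6 libraries were read as deposited, with the ESC SMAD2/3 and ESC HEB lists as the main pair. Per the labels the sequencer was a Genome Analyzer II. CASAVA 1.8.2 and the build mm9 are named in the submitters' processing notes. Not given in the sources used here are the authors' aligner, peak caller, height scaling and gene models. The columns of each region hold, per the file headers, whole-number counts of ChIP and background tags and a signal, the peak height of ChIP and background. The tag enrichment ratio is the authors' own and is not the plain ratio of tags in regions with few input tags. The deposited score headed as a −log10 q-value is far too large for that scale and was not used. The ESC SMAD2/3 list held 933126 ChIP tags in its regions and the ESC HEB list 4810688. Depth outside the regions is unknown.

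Regions repeated for different genes entered the counts 1 time. Gene assignment and distances to the 5′ end are the authors', and coordinates are printed as deposited. Whether they count from 0 or 1 is not stated in the labels or headers. Overlap needed 1 bp or more. Exact Clopper-Pearson intervals go with shares, exact Poisson intervals with tag counts and order-statistic intervals with medians, all at 95%. Python 3.11.15, pandas 2.3.3, NumPy 2.4.6 and SciPy 1.17.1 were used. Simulated lists of the ESC comparison served to test the overlap code, where 100% of 3060 planted pairs were recovered over 4111 SMAD2/3 regions. The planted pairs were isolated, with at most 1 SMAD2/3 region on a HEB region. The choice among several overlaps was thus not tested. On the real lists bedtools 2.31.1 counted the same overlaps. With 1 library per group no test was made. The 5 markers and the 12 gene lists were chosen with earlier results of these data known. Named genes were the markers, the 6 highest genic regions of each class, the 4 highest and 4 lowest pair ratios, the genes with most regions, and per list up to 4 members with the highest SMAD2/3 height, up to 4 HEB-only members with the highest HEB height and all SMAD2/3-only members. Other members are named for a count or a pair described. Some genes that this rule picks are not reported here. RefSeq GRCm38.p6 tables served for names, promoter windows and motifs, and 5698 of 5746 gene names matched. Alternatives are given in the closing section.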

Additional observations from a re-analysis of the deposited data

How the results depend on the processing

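The share of SMAD2/3 regions with HEB was 73.6% when 50% of both widths had to overlap, 71.2% with summits within 100 bp, 78.0% at heights of at least 40 in both lists and 77.0% in the upper 50% of each list. The share of HEB regions with SMAD2/3 was 17.6%, 17.0%, 15.0% and 18.3% under these settings and 17.9% when 50% of the HEB region had to be covered. The median log2 height ratio stayed negative, at -0.61 by tag enrichment, -0.55 by tags per kb and -0.70 at heights of at least 40. The width ratio was then -0.13. The median summit distance was 15 or 16 bp in all alternatives run. Gene counts moved most. Genes with both factors numbered 469 with promoter-proximal regions alone, 478 at heights of at least 40 and 785 with HEB limited to as many regions as SMAD2/3. Genes with SMAD2/3 only numbered 111 at heights of at least 40 and 891 with the limited HEB list, and those with HEB only 2440, 2141 and 732 under these 3 settings. Genes with 2 or more regions numbered 93 for SMAD2/3 and 834 for HEB at heights of at least 40. These settings use fewer regions by construction. Leaving out regions of background height 20 or more, an alternative chosen after seeing the data, moved the shares, the height ratio and the summit distance by less than their intervals. No paired analysis was possible because each group held 1 library, and for the same reason no library could be left out. What the lists cannot show is binding below a height of 25.0, so a region of a single factor may hold the other at a lower level, and the ESC SMAD2/3 list rests on fewer tags than the HEB list.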
